A study of Mus musculus with 12 samples.

Results

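The 45 genes described here encode proteins that make ribosomes in the nucleolus. They are a list of gene symbols that covers RNA polymerase I, ribosomal RNA processing and ribosome assembly, and all 45 are present among the 24421 symbols of the count table. All 45 passed the filter on low counts and were tested among 15246 genes. The list holds 5 genes of RNA polymerase I and its factors, 7 of small nucleolar ribonucleoproteins, 20 of the small subunit processome, 9 of large subunit assembly and 4 abundant nucleolar proteins with several functions. The 20 are called processome genes below, although they include factors of later small subunit steps such as Tsr1.

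Ribosome production starts when RNA polymerase I transcribes the ribosomal DNA repeats into a long precursor RNA. Small nucleolar ribonucleoproteins guide methylation (box C/D type) and pseudouridylation (box H/ACA type) of this precursor, and the small subunit processome folds and cleaves the part that becomes the small ribosomal subunit, while a separate set of factors builds the large subunit. Many of these genes are known targets of the transcription factor MYC, and in embryonic tissues their transcripts are abundant where cells grow and divide.

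Whole lungs of wild-type CD-1 mouse embryos were isolated at embryonic day 12.5, cultured as explants in Matrigel at an air-liquid interface and measured by bulk sequencing of messenger RNA libraries. On the next day, Day 0, a 20% solution of PEG-HCC, a light-sensitive polyethylene glycol that a focused laser can crosslink into a stiff gel, was added to the Matrigel. For the 4 Day 2 compression libraries the polymer around the lung was crosslinked to restrict growth for 2 days. For the 4 Day 2 control libraries an equal amount stayed uncrosslinked, and 4 libraries come from lungs taken at Day 0. All groups share the strain, the wild-type genotype and the culture outside the body, and the labels do not state whether each library had its own embryo, so p-values measure the spread between these samples.

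Total counts were 13979900 to 33249800 per library, and the member with the fewest reads in any library still had 299 counts. Levels are given as CPM, a gene's counts relative to the TMM-scaled size of its library. Markers of lung epithelium summed to 1737 to 2299 CPM under compression, 1570 to 1739 CPM in controls and 738 to 895 CPM at Day 0. Of 5 epithelium markers tested in edgeR, 4 rose and 1 fell in each Day 2 group against Day 0. Their log2 fold changes were -0.47 to 2.97 in controls and -0.28 to 3.80 under compression. Markers of lung mesenchyme summed to 1942 to 2499 CPM under compression, 1739 to 2336 CPM in controls and 2047 to 2622 CPM at Day 0. Of 5 mesenchyme markers tested in edgeR, 3 fell and 0 rose in each Day 2 group against Day 0 (medians -0.43 in controls and -0.46 under compression, log2). Endothelial markers (Pecam1, Cdh5 and Kdr) summed to 51.3 to 66.6 CPM under compression, 39.2 to 74.3 CPM in controls and 203 to 339 CPM at Day 0. Leukocyte markers summed to 127 to 176 CPM under compression, 96.0 to 155 CPM in controls and 82.5 to 99.9 CPM at Day 0. Liver markers reached 1470.4 CPM in control replicate 4 and at most 17.3 CPM in the other libraries, and the globin genes Hba-a1 and Hbb-bt had 0 counts throughout. Compression replicates 2 and 3 are labelled 13A and 13B. Averaged over all genes compared, their counts differed by more than sampling noise (mean chi-square per gene 4.07). This was less than in any other pair of 1 group (7.48 to 122). For the nucleolar genes alone their median chi-square was 0.52, again the lowest of these pairs (0.62 to 22.3 in the others). These genes thus give little sign that the 2 libraries are separate samples. Whether both come from 1 lung was not tested, and they were counted as separate samples. The part of cell makeup in the results below was not tested, and in bulk samples fewer cells of a type and less RNA per cell cannot be told apart.

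Most transcripts of the nucleolar genes were lower after 2 days of culture than at Day 0, and their values under compression lay slightly below those in controls, although edgeR called no single gene in that last comparison. Together the 45 genes summed to 5287, 4982, 5222 and 4701 CPM in compression replicates 1 to 4, to 5529, 5619, 5406 and 5406 CPM in the controls, and to 7562, 6742, 6241 and 6097 CPM at Day 0. All 8 Day 2 libraries lay below all Day 0 libraries, and all compression libraries lay below all controls. Npm1 and Ncl make up much of this sum, so the median gene was examined as well. The median of log2 CPM over the 45 genes, each taken relative to its Day 0 mean, was -0.29, -0.39, -0.30 and -0.43 under compression, -0.26, -0.21, -0.26 and -0.26 in controls, and 0.08, 0.05, -0.07 and -0.09 at Day 0. The order of the groups is the same on this scale, with compression replicate 1 nearest to the controls. Within Day 0, replicates 1 and 2 had the higher and replicates 3 and 4 the lower values.

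**Figure D1:**
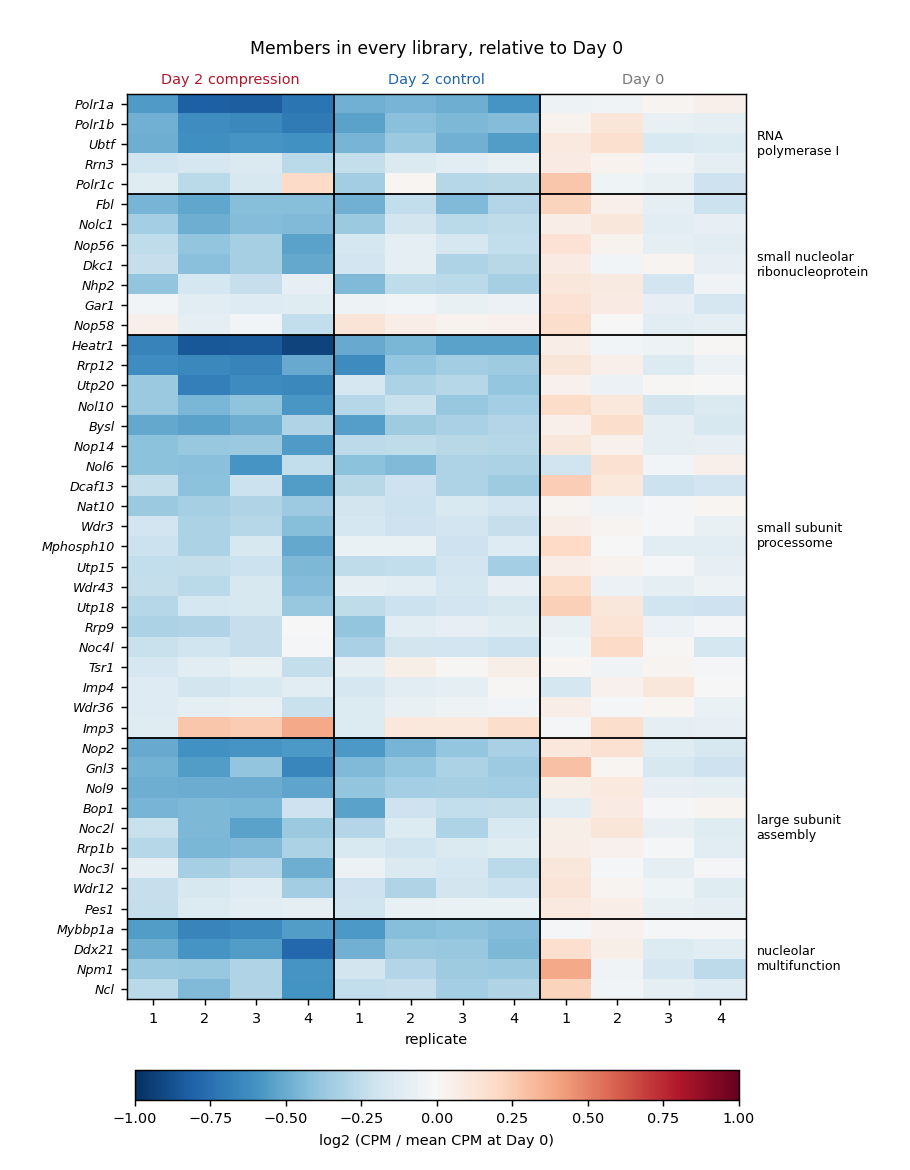
Level of each of the 45 genes (rows, grouped by role) in each of the 12 libraries (columns), as log2 of CPM over the mean CPM at Day 0. Blue shades fill most of the compression and control columns, and the darkest cells are those of Heatr1 and Polr1a under compression, while Imp3 is the gene with red cells in 3 compression libraries.

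Day 2 control lungs set against Day 0 lungs show how the genes changed in culture without restriction. Effects of 2 days of development, of culture and of exposure to the uncrosslinked polymer cannot be told apart here. Of the 45 genes, 28 fell and 0 rose at an adjusted p under 0.05 (edgeR's quasi-likelihood test with Benjamini-Hochberg adjustment over all genes tested), against 17.6% of all tested genes lower and 22.6% higher. None was higher at an unadjusted p under 0.05, and DESeq2 and limma-voom also called 0 higher. Fold changes were negative for 42 of the 45. Their median was -0.26 on the log2 scale, a level 16.3% lower in controls, and the median of all genes tested was 0.02. In 29 of the 45 every control library lay below every Day 0 library, which 17.4% of all genes did. By role, 3 of 5 RNA polymerase I genes fell, 4 of 7 small nucleolar ribonucleoprotein genes, 12 of 20 small subunit processome genes, 6 of 9 large subunit genes and 3 of 4 multifunctional nucleolar genes.

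The RNA polymerase I machinery held some of the larger changes. Polr1a, the largest subunit of the enzyme, had 109, 110.5, 109 and 101 CPM in controls, against 147, 149, 156 and 158 CPM at Day 0. The groups were apart, and the log2 fold change was -0.51 ± 0.06 (SE, edgeR adjusted p = 3.18e-05). Polr1b, the second-largest subunit, had 45.5, 49.5, 48.2 and 48.8 CPM in controls, against 67.6, 71.7, 62.7 and 62.1 CPM at Day 0, and fell by 0.46 on the log2 scale (SE 0.07, edgeR adjusted p = 0.000138). Ubtf, which binds the ribosomal DNA promoter and keeps the repeats open, had 194, 207, 191 and 182 CPM in controls, against 287, 299, 241 and 244 CPM at Day 0. It fell by 0.47 (SE 0.07, edgeR adjusted p = 0.000251), and its Day 0 libraries split into a higher and a lower pair. Rrn3, which brings the polymerase to the promoter, and Polr1c, a subunit shared with RNA polymerase III, did not pass, at -0.14 ± 0.06 (edgeR adjusted p = 0.0626) and -0.21 ± 0.12 (edgeR adjusted p = 0.175).

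Of the small nucleolar ribonucleoprotein genes, Fbl, Dkc1, Nhp2 and Nolc1 fell. Fbl encodes fibrillarin, the methyltransferase of the box C/D particles, and averaged 93.7 ± 7.26 CPM in controls and 120.3 ± 15.7 CPM at Day 0 (SD, n = 4 each), a change of -0.36 ± 0.09 (SE). Nop56 and Nop58, which hold fibrillarin in place, stood at -0.17 ± 0.07 and 0.07 ± 0.07 and did not pass. In the box H/ACA particles the pseudouridine synthase Dkc1 fell by 0.22 (SE 0.07) and its partner Nhp2 by 0.32 (SE 0.09), while Gar1 was at -0.05 ± 0.07 and overlapped between the groups. Nolc1, a chaperone of both particle types in the nucleolus, fell by 0.27 (SE 0.06). Whether the partners of 1 particle differed from each other was not tested.

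In the small subunit processome, Heatr1 changed most. Heatr1, the homologue of the yeast protein Utp10, belongs to the subcomplex that links transcription of the precursor to its processing. It had 75.01, 77.4, 73.2 and 73.4 CPM in controls, against 111, 104, 103 and 107 CPM at Day 0, and fell by 0.51 (SE 0.06, edgeR adjusted p = 2.84e-05). The 2 groups were far apart relative to their spread. Other members of the set that fell were Rrp12 (-0.43), Bysl (-0.38) and Nol6 (-0.37), together with Nol10, Utp20, Nop14, Dcaf13, Utp15, Noc4l, Wdr3 and Nat10 at -0.30 to -0.19. The 8 that did not pass lay between -0.20 for Utp18 and 0.07 for Imp3. Imp3, Imp4 and Mphosph10, which form a trimer that binds the guide RNA of the processome, were all in this group, as was Tsr1, a factor of late cytoplasmic steps, at 0.01 ± 0.06 (SE), a value that was -0.01 with DESeq2.

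Of the large subunit factors, Nol9, a polynucleotide kinase that acts on the spacer between the mature RNAs, had 61.3, 63.6, 63.8 and 63.5 CPM in controls, against 83.8, 86.0, 75.8 and 75.7 CPM at Day 0. It fell by 0.35 (SE 0.06, edgeR adjusted p = 0.000288) with no overlap. Nop2, an RNA methyltransferase, fell by 0.43 (SE 0.08) and Gnl3, the nucleostemin gene, by 0.38 (SE 0.10). Pes1, Bop1 and Wdr12 work as 1 complex, and Bop1 (-0.30 ± 0.08) and Wdr12 (-0.23 ± 0.07) fell while Pes1 did not pass (-0.10 ± 0.06, SE). Noc2l also fell (-0.22), whereas Rrp1b (-0.15, edgeR adjusted p = 0.0555) and Noc3l (-0.16) did not pass.

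Among the multifunctional proteins, Mybbp1a, a nucleolar protein that binds transcription factors and RNA polymerase I, had 227, 252, 255 and 251 CPM in controls, against 336, 348, 334 and 335 CPM at Day 0. It fell by 0.46 (SE 0.05, edgeR adjusted p = 2.26e-05), the smallest p of the 45. The helicase Ddx21 fell by 0.42 (SE 0.08) and nucleolin, Ncl, by 0.28 (SE 0.09). Npm1, the histone chaperone nucleophosmin and the most abundant transcript of the list, had 1242, 1147, 1102 and 1087 CPM in controls, against 1832, 1371, 1256 and 1172 CPM at Day 0. Day 0 replicate 1 stood above the rest, the groups overlapped, and the change of -0.30 ± 0.12 (SE) did not pass (edgeR adjusted p = 0.0594).

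**Figure D2:**
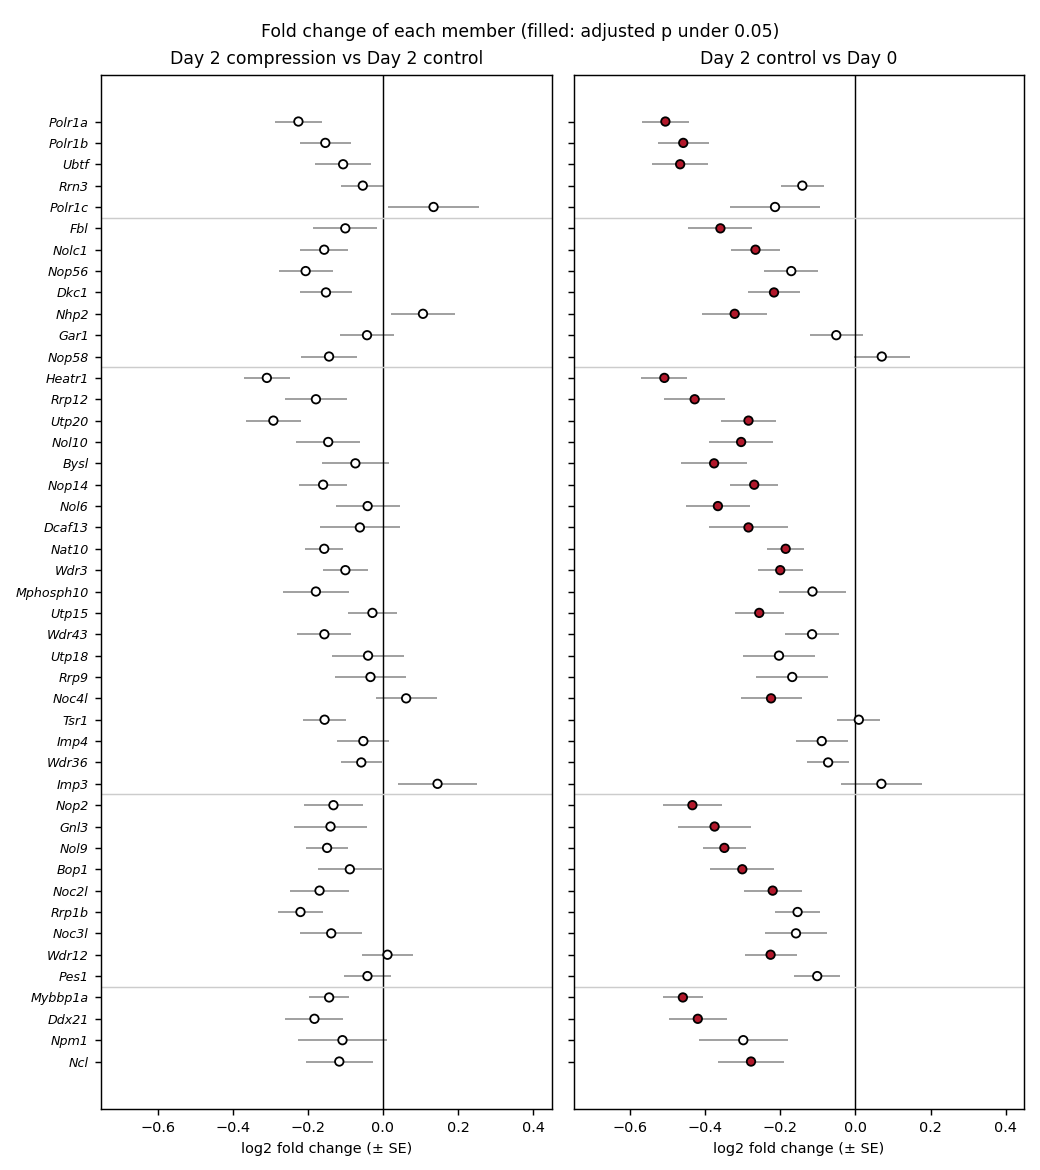
Log2 fold change of each gene with its standard error, for Day 2 compression against Day 2 control (left) and Day 2 control against Day 0 (right), with genes in the order of roles used above. Filled points passed the adjusted threshold: 0 of 45 at left, where most points lie just below 0, and 28 of 45 at right.

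Comparing Day 2 compression with Day 2 control asks how these genes differed between lungs in crosslinked and in uncrosslinked polymer. The crosslinking by laser, the stiff gel and the restricted growth come together and cannot be told apart. No gene of the 45 passed at an adjusted p under 0.05 in edgeR's quasi-likelihood test, and of all 15246 genes 0% passed. Fold changes were negative for 40 of the 45, as they were for 49% of all genes. The median was -0.13 on the log2 scale, a level 8.74% lower under compression, and that of all genes was 0.00. At an unadjusted p under 0.05, 17 were lower and 0 higher, against 5.33% of all genes lower and 6.73% higher. In 7 genes every compression library lay below every control, which 2.7% of all genes did: Heatr1, Nat10, Nop14, Nop56, Nol9, Rrp1b and Ddx21. DESeq2 called 2 of the 45 lower, Heatr1 and Utp20 (0.118% of all genes), and limma-voom with sample quality weights called 13 lower and 0 higher (5.37% of all genes lower). The count of 17 was 8 without control replicate 2, 11 without control replicate 3 and 10 without control replicate 4, compression replicate 2 or compression replicate 4.

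Heatr1 had the smallest p. It had 67.1, 59.0, 59.4 and 55.9 CPM under compression, against 75.01, 77.4, 73.2 and 73.4 CPM in controls. All 4 compression libraries were below the lowest control, with replicate 1 nearest, and the log2 fold change was -0.31 ± 0.06 (SE, 95% interval -0.44 to -0.18, edgeR adjusted p = 0.224). Utp20, a large scaffold protein of the processome, had 90.02, 72.6, 75.2 and 74.4 CPM under compression, against 104, 93.6, 95.5 and 89.1 CPM in controls. Compression replicate 1 lay just above the lowest control while replicates 2 to 4 lay below all of them, for a fold change of -0.29 ± 0.07 (SE, edgeR adjusted p = 0.273). Without compression replicate 1, edgeR called both genes (Heatr1 -0.37, adjusted p = 0.0410, and Utp20 -0.37, adjusted p = 0.0489), and no other gene of the 45.

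Rrp1b, a nucleolar factor of large subunit processing, had 60.4, 53.7, 54.4 and 59.1 CPM under compression, against 66.3, 64.2, 66.8 and 67.8 CPM in controls, with no overlap (-0.22 ± 0.06, SE, edgeR adjusted p = 0.309). Polr1a had 103, 86.8, 86.0 and 91.96 CPM under compression, against 109, 110.5, 109 and 101 CPM in controls (-0.23 ± 0.06, SE, edgeR adjusted p = 0.309). Here compression replicate 1 overlapped the controls and replicates 2 and 3 were lowest. With the offset for transcript length its change was -0.14. Nat10, which acetylates cytidines of the small subunit RNA, had 42.4, 43.8, 44.6 and 42.7 CPM under compression, against 48.4, 47.3, 49.5 and 48.1 CPM in controls, a small gap between 2 tight groups (-0.16 ± 0.05, SE, edgeR adjusted p = 0.346). Nop56 had 154, 139.7, 146 and 127 CPM under compression, against 163, 172, 163 and 155 CPM in controls, with replicate 1 of compression just under the lowest control (-0.21 ± 0.07, SE, edgeR adjusted p = 0.366).

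**Figure D3:**
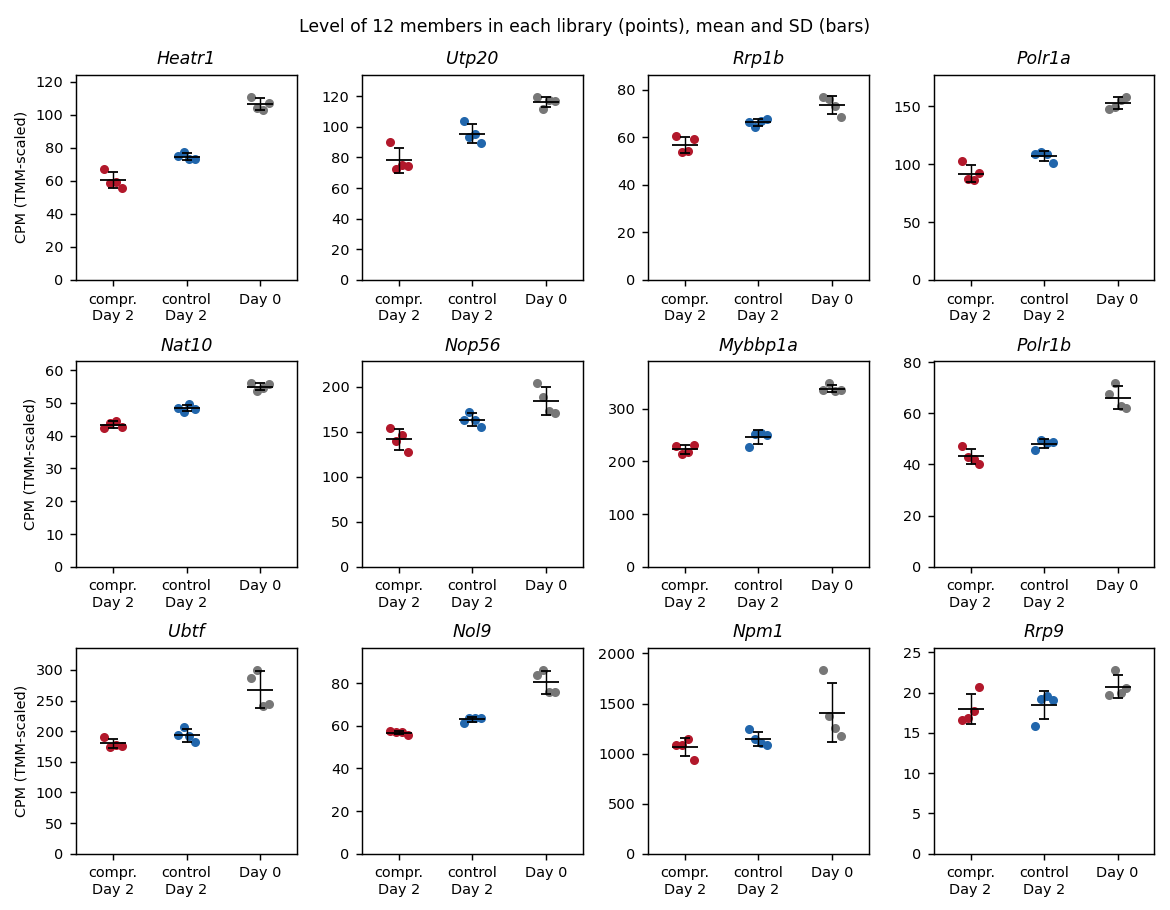
CPM of 12 genes in each library (points) with the group mean and SD (bars), for Day 2 compression, Day 2 control and Day 0. The 6 with the smallest p in each comparison are shown with the most abundant (Npm1) and least abundant (Rrp9) gene. For Heatr1, Nol9 and Nat10 the compression points lie lowest, the control points above them and the Day 0 points highest, without overlap, while the compression and control points of Rrp9 overlap.

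The 5 genes with positive values under compression were Imp3 (0.15 ± 0.11), Polr1c (0.13 ± 0.12), Nhp2 (0.11 ± 0.09), Noc4l (0.06 ± 0.08) and Wdr12 (0.01 ± 0.07), given with their SE. None reached an unadjusted p of 0.05, and all overlapped between the groups. Rrp9, a protein bound to the guide RNA of the processome, was the least abundant gene, with 16.6, 16.9, 17.7 and 20.8 CPM under compression, 15.8, 19.2, 19.6 and 19.1 CPM in controls and 19.7, 22.8, 19.9 and 20.5 CPM at Day 0. Its 2 Day 2 groups overlapped (-0.03 ± 0.10, SE), and the interval of the difference (-0.24 to 0.17) allows a change in either direction. What could be detected depends on the spread of the estimates and on the adjustment over all genes tested. The median SE over the 45 genes was 0.07 on the log2 scale.

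Compression against Day 0 uses the same Day 0 libraries, so it is no independent repeat of the control comparison. Here 35 of 45 fell and 0 rose in edgeR's test, against 22.5% of all genes lower and 26.6% higher. The median was -0.37, a level 22.8% lower under compression, and that of all genes was 0.02. In 34 genes all compression libraries lay below all Day 0 libraries, against 19.5% of all genes. Heatr1 was at -0.82 ± 0.06 (SE, edgeR adjusted p = 5.1e-07), a level 43.3% lower under compression. Polr1a followed at -0.73 ± 0.06 (edgeR adjusted p = 1.27e-06), Mybbp1a at -0.60 ± 0.05 (edgeR adjusted p = 1.81e-06), Polr1b at -0.61 ± 0.07 (edgeR adjusted p = 9.63e-06), Utp20 at -0.58 ± 0.07 (edgeR adjusted p = 2.64e-05) and Nol9 at -0.50 ± 0.06 (edgeR adjusted p = 1.2e-05).

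The compression libraries behind these values were as follows. Mybbp1a had 229.8, 214, 217 and 230.4 CPM under compression, all far below Day 0 and overlapping the lowest control. Polr1b had 47.3, 42.8, 42.1 and 40.3 CPM and Ubtf 191, 175, 178 and 176 CPM under compression, and both also overlapped the controls. Nol9 had 57.4, 57.1, 57.1 and 55.9 CPM under compression, a narrow range below every control. Npm1 had 1087, 1081, 1146 and 935 CPM under compression and fell against Day 0 (-0.41 ± 0.12, SE, edgeR adjusted p = 0.0118). By role, 4 of 5 RNA polymerase I genes fell, 4 of 7 ribonucleoprotein genes, 15 of 20 processome genes, 8 of 9 large subunit genes and all 4 multifunctional genes. Of all genes tested 22.5% fell in this comparison with Day 0. The 10 genes that did not pass were Polr1c, Nop58, Gar1, Nhp2, Wdr36, Noc4l, Imp3, Imp4, Rrp9 and Pes1. Imp3 alone had a positive value, 0.21 ± 0.11 (SE, edgeR adjusted p = 0.111), called higher by limma-voom and, without compression replicate 1, by edgeR.

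The levels of the 45 genes differ widely. Per kilobase of transcript, Npm1 stood highest, with 650.4 CPM per kb under compression, 701 in controls and 862 at Day 0. Ncl came next at 119, 129 and 157 CPM per kb in the same groups. These values rest on an annotated transcript of 8202 bases, and a shorter transcript would give higher ones. Nop58 (103 CPM per kb under compression, 114 in controls and 108 at Day 0) and Nop56 (75.5, 87.1 and 98.1) belong to the box C/D particles, as does Fbl (73.0, 78.3 and 100.5), while Heatr1 had 8.90, 11.03 and 15.7 CPM per kb. Gar1 and Nhp2, partners in the H/ACA particle, lay at 26.6 and 28.5 CPM per kb under compression and at 27.4 and 26.5 in controls.

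The other genes of the pathway, taken from lists of the RNA polymerase I machinery, the processome, large subunit assembly, particle assembly and the exosome, were counted in the same way. Of 117 such genes tested, 37 fell and 2 rose in controls against Day 0 (median -0.14), and 56 fell and 2 rose under compression against Day 0 (median -0.18). These shares compare with 17.6% lower and 22.6% higher of all genes in controls and with 22.5% and 26.6% under compression. By list, in controls 13 of 33 processome and 18 of 48 large subunit genes fell, as did 3 of 11 RNA polymerase I genes with 1 higher (median -0.04), 2 of 10 particle assembly genes (median -0.0046) and 1 of 15 exosome genes with 1 higher. Differences between the lists were not tested. Between compression and control edgeR called 0, with 10 lower and 2 higher at an unadjusted p under 0.05 and a median of -0.07. Ttf1, which ends transcription by RNA polymerase I, rose in controls (0.24 ± 0.08, edgeR adjusted p = 0.0242) and did not pass under compression (0.19 ± 0.08). Tcof1, whose product treacle works with Ubtf at the ribosomal DNA, fell in controls (-0.36 ± 0.06) and under compression (-0.48 ± 0.06) against Day 0. Cirh1a (-0.52 ± 0.09) and Tbl3 (-0.51 ± 0.10), both of the processome, fell in controls, and Mdn1, a large ATPase that remodels the precursor of the large subunit, fell under compression (-0.96 ± 0.16, SE). In compression against control the lowest p values of these lists belonged to Rbm28 (-0.27 ± 0.08, edgeR adjusted p = 0.309) for the large subunit, and to Bms1 (-0.19) and Wdr75 (-0.23) for the small subunit. Noncoding host genes of small nucleolar RNAs had 3 of 14 lower in controls and 6 of 14 lower and 1 higher under compression against Day 0. Snhg17 had the smallest p of these hosts under compression against control (-0.32 ± 0.07, SE, edgeR adjusted p = 0.252).

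The genes of the finished ribosome gave other counts. Of 33 cytosolic ribosomal protein genes tested, 0 fell and 2 rose in controls against Day 0 in edgeR's test (median 0.04). Under compression against Day 0, 0 fell and 10 rose (median 0.16). The shares that rose were 6.06% in controls and 30.3% under compression, against 22.6% and 26.6% of all genes. The shares of all genes that fell were 17.6% and 22.5%. At an unadjusted p under 0.05, 0 were lower in controls and 1 was lower under compression, and DESeq2 and limma-voom each called 0 lower in controls and 1 lower under compression. Higher calls were 3 in controls and 10 under compression with DESeq2, and 9 and 20 with limma-voom. Over all alternatives 1 to 9 rose in controls and 1 to 20 under compression. Rpl23 is an example, with 959.7, 1043, 1152 and 1076 CPM under compression, 979, 1053, 1016 and 1072 CPM in controls and 917, 853, 854 and 782 CPM at Day 0. Compression against control called 0 of the 33, as it called 0 of all genes. At an unadjusted p under 0.05, 1 was higher and 0 lower, against 6.73% and 5.33% of all genes. Values were positive for 30 (median 0.11), against 7780 of all 15246 genes. With the offset for transcript length described below, 4 fell and 1 rose in controls and 3 fell and 1 rose under compression, so these counts depend on the processing. Without Day 0 replicate 3 or 4, or compression replicate 2 or 3, 3 to 5 rose under compression, and without compression replicate 1 the number was 15. In controls the number that rose was 4 without Day 0 replicate 1 and 1 without Day 0 replicate 3 or 4, or without control replicate 2 or 4. The difference between ribosomal protein genes and the 45 was not tested as such. The ribosomal precursor itself, Rn45s, had 5404, 26709, 21419 and 57978 CPM under compression, 12754, 6396, 19554 and 10932 CPM in controls and 15892, 7613, 10375 and 11696 CPM at Day 0. The ranges of all 3 groups overlapped, compression replicate 4 was highest, and the gene was not called (1.17 ± 0.59, SE, edgeR adjusted p = 0.448, for compression against control).

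**Figure D4:**
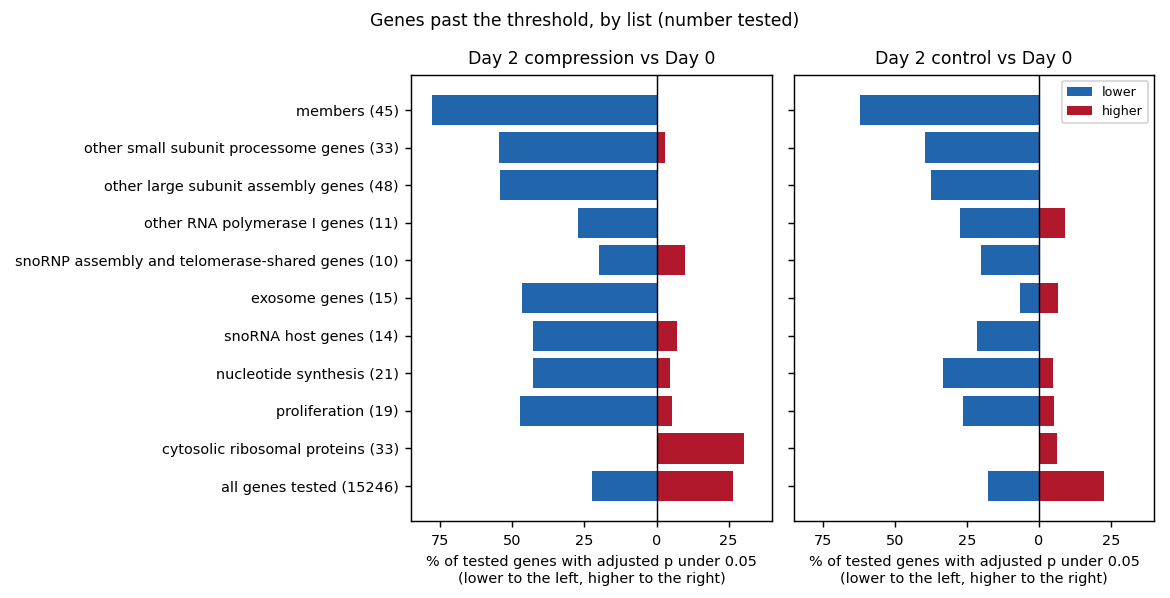
Percent of tested genes of each list that passed the adjusted threshold, lower to the left and higher to the right, for Day 2 compression against Day 0 and Day 2 control against Day 0, with the number tested in brackets. The 45 genes have the longest bars to the left of the lists drawn, and the cytosolic ribosomal proteins have no bar to the left, unlike with the offset for transcript length.

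Other genes tied to growth were counted in the same comparisons. Myc, the transcription factor named above, had 36.3, 40.9, 38.1 and 42.5 CPM under compression, 31.3, 36.6, 44.8 and 47.3 CPM in controls and 67.9, 71.2, 81.98 and 91.4 CPM at Day 0. Every Day 2 library was below every Day 0 library, the fall was -0.97 in controls and -0.99 under compression (edgeR adjusted p = 5e-05 and 2.93e-05), and compression differed from control by -0.02 ± 0.13 (SE). Its relative Mycn had 53.7, 58.4, 53.5 and 75.1 CPM under compression, 54.3, 68.3, 63.6 and 58.6 CPM in controls and 48.2, 45.2, 41.0 and 42.9 CPM at Day 0, and rose in controls (0.47 ± 0.11) and under compression (0.44 ± 0.11). Of 10 tested genes of the MYC network list, 2 fell and 2 rose in controls (median -0.04) and 1 fell and 2 rose under compression against Day 0. Of 21 nucleotide synthesis genes, 7 fell and 1 rose in controls and 9 fell and 1 rose under compression, both against Day 0. Of 19 proliferation genes the counts were 5 and 1 in controls and 9 and 1 under compression, and without Day 0 replicate 2 or control replicate 1 the fallen genes in controls were 2 and 3. The nucleotide synthesis and proliferation lists thus had 33.3% and 26.3% lower in controls, against 17.6% of all genes, and 42.9% and 47.4% lower under compression, against 22.5% of all genes. The summed level of the proliferation list was 3750 to 4208 CPM under compression, 4079 to 4483 CPM in controls and 4313 to 4698 CPM at Day 0. All 10 listed targets of p53, a tumour suppressor that disturbed ribosome production is known to activate, rose in both Day 2 groups against Day 0. Of all genes, 22.6% rose in controls and 26.6% under compression. Cdkn1a was at 2.65 in controls and 2.91 under compression. Over all alternatives 8 to 10 of the p53 targets rose in controls and 10 under compression. The part of any of these in the changes of the 45 genes was not tested.

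Because MYC with its partner MAX binds the sequence CACGTG, the promoters were searched for it. RefSeq promoter windows of 300 bases (GRCm38.p6), from 250 before to 50 after the transcript start, were found by symbol for 38 of the 45 genes. The motif is its own reverse complement and was present in 9 of the 38 (23.7%), against 11.2% of 11404 tested genes with a window and 8.09% of all genes. A match of these letters is a description and not evidence of binding. The 30 bases around each occurrence are shown for all 9 genes, 5′ to 3′ in the gene's direction. The motif, by which these genes were selected, is in capitals:
Imp4 chr1:34439696-34439725 plus: acggtcttagacCACGTGacatcccaaatc
Mybbp1a chr11:72441347-72441376 plus: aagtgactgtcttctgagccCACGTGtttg
Nop2 chr6:125131811-125131840 plus: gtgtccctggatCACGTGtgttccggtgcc
Pes1 chr11:3963965-3963994 plus: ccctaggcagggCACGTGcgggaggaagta
Rrn3 chr16:13780472-13780501 plus: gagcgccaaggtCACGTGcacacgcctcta
Rrn3 chr16:13780639-13780668 plus: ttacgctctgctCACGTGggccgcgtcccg
Tsr1 chr11:74898092-74898121 plus: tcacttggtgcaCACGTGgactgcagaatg
Utp18 chr11:93885769-93885798 minus: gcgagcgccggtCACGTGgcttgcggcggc
Utp20 chr10:88826765-88826794 minus: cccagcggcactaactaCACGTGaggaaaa
Wdr43 chr17:71616220-71616249 plus: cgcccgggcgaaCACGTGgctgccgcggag

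Imp4, Nop2, Rrn3 and Utp18 hold the motif before the transcript start, at -121, -60, -215 with -48, and -20, counted to its first base. In the other 5 it follows the start, from base 3 in Pes1 to base 41 in Mybbp1a. In controls against Day 0 Mybbp1a (-0.46), Nop2 (-0.43) and Utp20 (-0.28) fell, while Pes1 (-0.10), Rrn3 (-0.14), Imp4 (-0.09), Utp18 (-0.20), Wdr43 (-0.12) and Tsr1 (0.01) did not pass.

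Longer transcripts tended to have lower fold changes. Across the 45 genes, log2 fold change and transcript length had a Pearson r of -0.50 and a Spearman rho of -0.36 for compression against control, and -0.33 and -0.27 for control against Day 0. Across 15124 tested genes with a length, rho was -0.23 and -0.11. Genes within a sample share depth and library and are not independent. In compression against control the median of all genes was 0.06 for transcripts of 1000 to 2000 bases and -0.08 above 6000, and the 45 genes had medians of -0.08 (10 genes) and -0.23 (5 genes) in these classes. Heatr1 (6780 bases), Utp20 (8821) and Polr1a (9216) are among the longest, and Imp3 (924), Nhp2 (1042) and Polr1c (1314), with positive values against controls, are among the shortest. Wdr12, the longest at 10012 bases by its annotation, also had a positive value (0.01). The slope of expression on length per library averaged -0.04 log2 units per doubling of length under compression, -0.0019 in controls and 0.04 at Day 0. Two-sided exact permutation tests (n = 4 each, smallest possible p 0.0286) gave p = 0.0857 for compression against control, 0.0571 for control against Day 0 and 0.0286 for compression against Day 0. After Benjamini-Hochberg adjustment over the 3 comparisons each was 0.0857. With a per-library offset for length, a correction added after the relation was seen, 32 genes fell in controls against Day 0, 39 fell under compression against Day 0, 0 were called between compression and control, and the medians were -0.26, -0.38 and -0.14. Without the offset, 17.6% of all genes fell in controls and 22.5% under compression, both against Day 0.

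**Figure D5:**
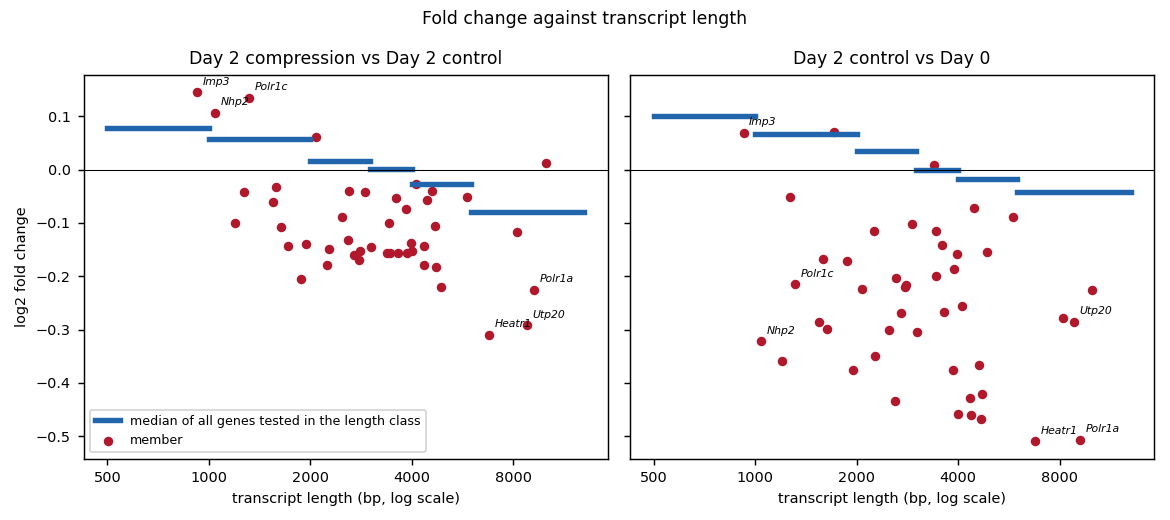
Log2 fold change against transcript length (log axis) for the 45 genes (points), with the median of all tested genes in each length class (bars), for Day 2 compression against Day 2 control (left) and Day 2 control against Day 0 (right). Most points lie below the bar of their own length class in both panels, and the bars decline with length.

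Several genes carry other transcripts within or across their exons. Nop56, Nop58, Dkc1, Wdr43, Tsr1, Gnl3 and Ncl hold small nucleolar RNA genes inside their bodies, for example Snord57 in Nop56 and Snord82 in Ncl. Of these 7 hosts, 3 fell in controls and 6 under compression, both against Day 0, and of the other 38 genes 25 and 29 fell. Of all genes, 17.6% and 22.5% fell in these comparisons. The difference between the hosts and the other 38 was not tested. Exons of Tsr1 overlap Srr on the opposite strand over 32.3% of their length, those of Noc2l overlap Samd11 over 20.9% and those of Wdr3 overlap Spag17 over 15.7%. No source used here gives the strand setting of the counts, so the values of these 3 genes may hold reads of their neighbours.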

How the data were processed

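One table of raw counts per gene symbol, made by the authors for 12 libraries, was used. It was made with fastp and STAR on mm10, per the submitters' processing notes, while the sources used here do not give the counting tool, annotation or strand setting. The labels gave each library its group and number. The 45 genes, the other gene lists and the tests were chosen with earlier results of these data known.

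The tests ran in edgeR 4.0.16 under R 4.3.3. After filterByExpr (minimum count 10, minimum total 15) and TMM scaling, all 12 libraries entered 1 robust quasi-likelihood fit with the group as the only term. P-values were adjusted by the Benjamini-Hochberg method over all 15246 genes, with 0.05 as the threshold. Adjusted p-values given without a tool belong to edgeR. The procedure was tested on simulated data. Counting error is covered by the model, and totals of 13979900 counts or more keep it small for these genes.

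CPM use TMM-scaled library sizes. Lengths and overlaps come from GENCODE M21 (GRCm38), with 1 principal transcript per gene. Of the 24421 symbols, 23359 matched by symbol and 665 by an older symbol. Genes given per library are, in each comparison, the 6 with the smallest p among those past the threshold (or overall where fewer than 3 pass), and the most and least abundant. Motif sequences are given for every gene that holds the motif, which is wider than the rule first written.

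Alternatives were DESeq2 1.42.0, limma 3.58.1 (voom with sample quality weights), upper-quartile factors, total counts, removal of Rn45s, no filter on low counts, fits of 2 groups, a replicate block, leaving out each library, summing compression replicates 2 and 3, and a lowess offset for transcript length.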

Additional observations from a re-analysis of the deposited data

Results flagged for a closer look

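In 12 of 138 sets of 4 libraries (the 45 genes and the ribosomal precursor Rn45s, in 3 groups), 1 library stood apart by Dixon's test at its 95% critical value. Chance alone gives about 1 in 20 such sets. Bop1 had 41.6 CPM in compression replicate 4, above the other compression libraries, and 33.2 CPM in control replicate 1, below the other controls. Compression replicate 4 was also high for Noc4l at 35.7 CPM and low for Utp15 at 45.4 CPM. In compression replicate 1, Utp20 at 90.02 CPM and Gar1 at 35.5 CPM were high. Control replicate 1 was the low library for 5 further genes: Mybbp1a at 227 CPM, Pes1 at 90.7 CPM, Nol9 at 61.3 CPM, Rrp12 at 21.5 CPM and Rrp9 at 15.8 CPM. At Day 0, Wdr43 was high in replicate 1 at 138.7 CPM. Of the 12 values, 6 belong to control replicate 1, whose total of 30805300 counts is within the range of the others. Without it, edgeR called 0 genes for compression against control and 26 for control against Day 0.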

How the results depend on the processing

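No alternative reversed the sign of a median or of a gene that was called. Control against Day 0 gave 25 to 33 genes lower across all alternatives, with medians of -0.30 to -0.22, and compression against Day 0 gave 33 to 39, with medians of -0.42 to -0.34. In compression against control the median stayed between -0.15 and -0.11, and the number called was 0 except with DESeq2 (2), with limma-voom (13) and when single libraries were left out (0 to 2). The 2 came without compression replicate 1, and the cause was not tested. DESeq2 and limma-voom called Heatr1 (adjusted p = 0.00161 and 0.00342) and Utp20 (adjusted p = 0.0324 and 0.00444), and over all alternatives the adjusted p of each reached 0.688. Against Day 0, calls were lost in controls for Noc4l (8 of 17 alternatives), Dcaf13 (7), Noc2l (6) and Wdr12 (1), and under compression for Utp18 (10 of 18), Tsr1 (6) and Wdr12 (1). Values near 0 changed sign under some alternatives, namely Tsr1, Nop58 and Imp3 for control against Day 0, Polr1c for compression against Day 0, and Utp18, Wdr12, Rrp9, Nol6, Utp15 and Dcaf13 for compression against control. Replicates with the same number deviated from their group means with correlations of -0.18 to 0.17 between compression and control, so the numbers were not taken as pairs. With the replicate block 0, 30 and 34 genes were called for compression against control, control against Day 0 and compression against Day 0, and no count moved by over 1.5 times. With 4 libraries a group, compression against control had a median change of -0.13 and a median SE of 0.07. The median SE was also 0.07 for control against Day 0, where 28 genes were called at a median of -0.26. The SE alone therefore does not account for the absence of calls between compression and control, and its cause was not tested. No scaling moved the median of all genes by over 0.1 (log2).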
